A study of Mus musculus with 6 samples.

Results

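The 47 genes described here encode the secreted and membrane-bound matrix metalloproteinases (MMPs, 19 genes), the ADAMTS proteases (19 genes), the ADAMTS-like proteins (ADAMTSL, 5 genes) and the tissue inhibitors of metalloproteinases (TIMPs, 4 genes). They were taken by gene symbol from the 17606 genes of a bulk RNA-seq table. RNA came from keratocytes, the mesenchymal cells of the corneal stroma, which were isolated by flow cytometry from mice aged 10 weeks. The 2 groups compared had 3 libraries each. Mice of both groups had received 3 doses of tamoxifen and were examined 1 month later. The Ptch1-ablated group came from Prrx1-CreERT;Ptch1 f/f mice. The control group is labelled as control, with WT in the sample titles. Whether those mice carried the Cre or the floxed alleles, and whether a library pooled several animals, is not stated in the sources used here. The study describes Prrx1-CreERT as active also in corneal endothelial cells and other mesenchymal lineages, so recombination was not limited to keratocytes.

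MMPs are zinc-dependent proteases that are made as inactive proenzymes and, once activated, cut collagens and many other matrix proteins. ADAMTS proteases are secreted relatives that carry thrombospondin repeats and cut proteoglycans, procollagens and other substrates, whereas ADAMTSL proteins share the repeats but lack the catalytic domain. TIMPs bind the active site of MMPs and block it, and Timp3 also inhibits ADAMTS proteases. In the cornea, the balance of these proteins is known for its part in stromal collagen turnover, wound repair and ulceration. The comparison addressed how sustained Hedgehog signaling, which the loss of the receptor Ptch1 switches on, altered the transcripts of this system. All values are mRNA levels. The inactive and active forms of the enzymes were not measured.

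Ptch1-ablated keratocytes had more mRNA of the proteoglycan-cleaving proteases Adamts1 and Adamts4, of the collagenolytic membrane protease Mmp14 and of Adamtsl4. They had less mRNA of the inhibitor Timp2, of the proteoglycanase Adamts5, of the procollagen processing enzyme Adamts2, of Adamts13, of Mmp23 and of Adamtsl5. The calls of Adamtsl4 and Adamtsl5 were the least stable, passing in 10 and 5 of 15 alternative settings. Adamts1 was 2.65-fold higher and Adamts4 13.2-fold higher, whereas Timp2 was 2.37-fold and Adamts5 2.75-fold lower. The most abundant protease, the gelatinase Mmp2, did not pass the test (log2 fold change −0.25 ± 0.13 SE, adjusted p = 0.305). Here a log2 fold change is Ptch1-ablated over control, and a gene passed the test at an adjusted p of at most 0.05 in edgeR's quasi-likelihood test over all genes.

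Of the 47 members, 39 had 10 or more counts in at least 3 libraries and 38 of these were tested. The test was passed by 4 members that rose and 6 that fell, 10 of 38 (26.3%), beside 8.48% of all 13888 genes tested (4.68% higher and 3.80% lower). With a fold change of at least 2 also required, 3 members rose (Adamts1, Adamts4 and Adamtsl4) and 4 fell (Timp2, Adamts2, Adamts5 and Adamts13). These 7 were 18.4% of the tested members, beside 5.49% of all genes tested (3.36% higher and 2.13% lower). The groups did not overlap in normalised counts for 16 of the 38 members (42.1%), beside 27.4% of all genes tested, and 6 of the 16 did not pass. The median log2 fold change of the 38 was −0.03, beside 0.0046 over all genes, with 18 members above and 20 below 0.

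Totals ran from 20258439 to 24788063 counts in the controls and from 21729860 to 23530508 in the ablated libraries, and 3 counts, the upper limit behind a listed 0, stood for 0.121 to 0.158 CPM (counts per 1000000). This limit covers counting error only. Gene totals of Ptch1 (104 to 369 counts in the controls, 4348 to 6230 in the ablated libraries) do not separate the deleted exons, so they do not check the deletion. Gli1, a Hedgehog target, had 1 to 36 counts in the controls and 3022 to 3098 in the ablated libraries. Control 1 and ablated 2 stood apart from the other libraries on the second principal component (18.8% of the variance). Of 7 keratocyte markers, Ptgds had 0 to 39 counts, while the others had at least 2399 in every library and 5 of them fell. Their summed level, in transcripts per 1000000 (TPM), was 61245 to 64888 in the controls and 42483 to 47017 in the ablated libraries.

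Levels of some other cell types' markers moved with the groups, while those of others overlapped. Of 6 corneal epithelial markers, 1 rose and 3 fell, and their summed TPM was 50.8 to 89.3 in the controls and 3.43 to 8.60 in the ablated libraries. Among them Krt12, which defines corneal epithelium, had 0 counts in every control and 21 to 52 in the ablated libraries. Of 6 mural cell markers, 2 rose and none fell, with sums of 373 to 447 and 623 to 714 TPM. Vascular endothelial markers rose for 3 of 5, with sums of 247 to 331 and 357 to 399 TPM, and Schwann cell markers for 1 of 5, with sums of 124 to 141 and 184 to 200 TPM. Leukocyte markers rose for 1 of 9, with overlapping sums of 1528 to 1811 and 1476 to 1955 TPM. Corneal endothelial markers rose for 2 of 5, with sums of 372 to 423 and 321 to 499 TPM, and none of 3 tested melanocyte markers passed, with sums of 1.28 to 5.59 and 2.48 to 5.83 TPM. The part of these cells in the protease results was not tested. In bulk RNA, fewer cells of a type and less RNA per cell cannot be told apart.

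The stretches just before the transcription start of 7 members are shown. They are a choice from the genes that moved in either direction and from the chromosome 9 MMP cluster. They are the 100 bases upstream of the start in the RefSeq promoter table (assembly GRCm38.p6), written 5′ to 3′ on the gene's strand. Capitals mark short motifs found on either strand. The GC box, a docking site of general activators, was read as GGGCGG. For the TATA box, which positions the start of transcription, the letters were TATAAA. The CCAAT box is spelled by its name, and the AP-1 site, bound by Fos and Jun dimers, by TGA and TCA with any base between them.

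Adamts1, chr16:85803114-85803213, minus strand: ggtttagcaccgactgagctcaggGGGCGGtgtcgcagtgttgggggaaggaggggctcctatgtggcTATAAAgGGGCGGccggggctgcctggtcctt
Mmp14, chr14:54431498-54431597, plus strand: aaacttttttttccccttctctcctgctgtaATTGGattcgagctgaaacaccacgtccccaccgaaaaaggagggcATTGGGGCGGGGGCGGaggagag
Adamtsl4, chr3:95687918-95688017, minus strand: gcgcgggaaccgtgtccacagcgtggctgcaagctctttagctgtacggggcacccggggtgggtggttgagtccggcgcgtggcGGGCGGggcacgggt
Timp2, chr11:118355412-118355511, minus strand: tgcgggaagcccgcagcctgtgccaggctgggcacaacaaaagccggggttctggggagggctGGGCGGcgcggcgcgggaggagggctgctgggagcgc
Adamts2, chr11:50601985-50602084, plus strand: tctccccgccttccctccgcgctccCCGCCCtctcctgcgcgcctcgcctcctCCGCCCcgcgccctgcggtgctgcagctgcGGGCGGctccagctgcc
Mmp13, chr9:7272414-7272513, plus strand: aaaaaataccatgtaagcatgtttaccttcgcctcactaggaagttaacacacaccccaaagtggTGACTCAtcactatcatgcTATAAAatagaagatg
Mmp3, chr9:7445722-7445821, plus strand: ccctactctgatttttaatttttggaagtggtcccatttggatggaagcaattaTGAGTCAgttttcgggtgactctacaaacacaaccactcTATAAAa

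The table held windows for 32 of the 47 members. It had no entry for Adamts4 or Adamts5. The windows of Adamts13, Mmp23 and Adamtsl5, which also passed, are not shown. Within 250 bases of the start, Adamts13 and Mmp23 had none of these motifs, and Adamtsl5 had a GC box at −225 only. The cluster gene Mmp8, also not shown, had none of them either. The motifs in the 7 stretches therefore do not stand for the moved genes or for the cluster. In the single long run of capitals of Mmp14, a CCAAT box on the reverse strand shares its last base with a GC box, and another GC box follows directly. The AP-1 letters were found within 250 bases of the start in 4 member windows, those of Mmp13, Mmp12, Mmp3 and Mmp1b, and in 4.66% of the 14055 windows of tested genes. These 4 genes follow each other on chromosome 9 as neighbouring protein-coding genes. Windows of the 6 MMP genes of that chromosome with an entry had a GC content of 37.6 to 44.8%, below the 53.6 to 80.0% of the other members' windows (all tested genes, median 59.2%). GC boxes were present in 55.3%, CCAAT boxes in 34.9% and TATA boxes in 6.82% of all windows. The Gli consensus GACCACCCA was in no member window and in 0.185% of all windows. Such matches are letters in a window, not sites shown to be used. Of the cluster genes tested, Mmp3, Mmp8 and Mmp12 had log2 fold changes of −0.27, −0.19 and 0.50 and none passed, and Mmp13 is described with the collagenases.

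**Figure D1:**
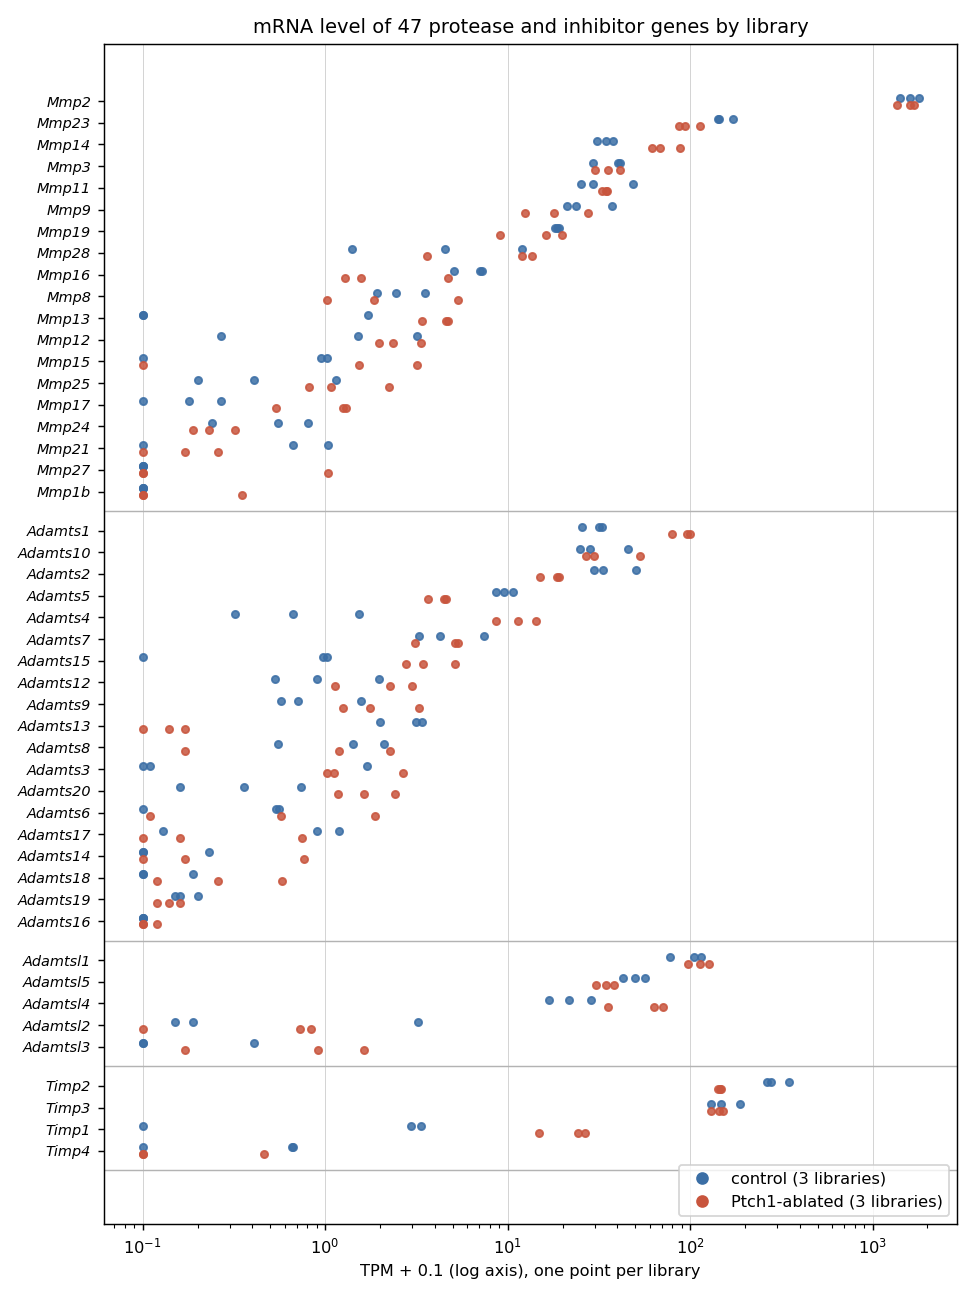
mRNA level of each of the 47 members in the 6 libraries, as TPM + 0.1 on a log axis, with control libraries in blue and Ptch1-ablated libraries in red. Mmp2 stands far to the right of every other member, the red points of Adamts1, Adamts4 and Mmp14 lie to the right of the blue ones, and those of Timp2, Adamts2, Adamts5 and Adamts13 lie to the left.

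Levels differed widely among members. On the TPM scale, which corrects for transcript length, Mmp2 had 1602 ± 189 TPM in the controls and 1548 ± 170 in the ablated libraries (SD, n = 3) and ranked 63rd and 62nd among all genes. It made up 79.8 to 85.7% of the summed MMP level of a library. The controls' next members were Timp2 (297 ± 44.3 TPM), Timp3 (155 ± 29.6 TPM), Mmp23 (152 ± 16.3 TPM) and Adamtsl1 (99.1 ± 18.9 TPM). Timp3 and Mmp23 differed by less than their spread. Mmp3, Mmp11 and Mmp14 in the MMP family, and Adamts2, Adamts10 and Adamts1 in the ADAMTS family, followed at mean levels of 29.9 to 37.9 TPM in the controls, with overlapping ranges over the control libraries.

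The sum of the 19 ADAMTS genes was 116 to 130 TPM in the controls and 159 to 194 TPM in the ablated libraries, with no overlap. The sum of the TIMP genes was 411 to 496 TPM in the controls and 291 to 326 TPM in the ablated libraries, also with no overlap. The MMP sum overlapped, at 1717 to 2114 and 1700 to 1975 TPM, and so did the ADAMTSL sum, at 147 to 186 and 165 to 231 TPM. These sums are descriptions without a test. A TPM value is a share of each library's total, so it also moves when the most abundant transcripts change.

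Among the gelatinases, which cut denatured collagen and basement membrane collagen, Mmp2 had 44412, 43973 and 56793 counts in control keratocytes and 49208, 37177 and 51144 in ablated keratocytes. The groups overlapped, and the 95% interval of the log2 fold change ran from −0.54 to 0.03. Mmp9, the other gelatinase, had 689, 668 and 1231 counts in control keratocytes and 539, 777 and 406 in ablated keratocytes (log2 fold change −0.74 ± 0.30 SE, adjusted p = 0.181). Here too the groups overlapped. With control 1 and ablated 2 left out, Mmp9 had a log2 fold change of −1.18 and an adjusted p of 0.0393.

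Mmp14, the founding membrane-type MMP, cuts fibrillar collagen at the cell surface and, with Timp2 as a bridge, activates the Mmp2 proenzyme. It (Entrez 17387) had 1368, 1291 and 1224 counts in control keratocytes and 2495, 3047 and 2483 in ablated keratocytes. Every ablated library was above every control, and Mmp14 rose 1.82-fold (log2 fold change 0.87 ± 0.18 SE, adjusted p = 0.00850). On the TPM scale its level was 34.3 ± 3.44 in the controls and 72.8 ± 13.9 in the ablated libraries (SD, n = 3). Mmp14 was the only one of 5 tested membrane-type members to pass. Mmp15, Mmp16, Mmp17 and Mmp25 had 0 to 238 counts and log2 fold changes from −1.58 to 3.21.

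Mmp16 and Mmp17 did not overlap between groups in normalised counts. Mmp16 had 163, 213 and 238 counts in control keratocytes and 146, 44 and 40 in ablated keratocytes (log2 fold change −1.58 ± 0.57 SE, adjusted p = 0.128). It passed only without ablated 1 (−2.47, adjusted p = 0.0291). Mmp17, a membrane-type MMP held by a lipid anchor, had 0, 7 and 4 counts in control keratocytes and 19, 47 and 57 in ablated keratocytes, a difference that did not pass (adjusted p = 0.195).

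Mmp23, an MMP with an unusual domain order that is anchored in the membrane until it is cut, was the second most abundant MMP in TPM. It (Entrez 26561) had 1937, 2008 and 1969 counts in control keratocytes and 1115, 1306 and 1291 in ablated keratocytes. The groups were separated, and Mmp23 fell 1.81-fold (log2 fold change −0.86 ± 0.17 SE, adjusted p = 0.00804). Without control 2 its adjusted p was 0.0518. Mmp23 overlaps Mib2 in the annotation, and the counting is not stated to use strand. Mib2 did not pass (log2 fold change −0.26, adjusted p = 0.602).

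Neither collagenase tested passed. Mmp13, the main interstitial collagenase of the mouse, had 0, 38 and 0 counts in control keratocytes and 113, 108 and 90 in ablated keratocytes. All ablated values were above all control values, but the spread among controls was large (log2 fold change 2.71 ± 1.45 SE, adjusted p = 0.330). Without control 2, the only control with a count, the adjusted p of Mmp13 was 0.00601. Mmp8, the neutrophil collagenase, had 39 to 85 counts in the controls and 23 to 112 in the ablated libraries. Neither stromelysin tested, of a group that cuts noncollagenous matrix, passed. Mmp3 had 699, 624 and 513 counts against 575, 625 and 526 (log2 fold change −0.27 ± 0.24, SE, adjusted p = 0.602), and Mmp11 had 553, 567 and 1072 against 722, 680 and 748 (−0.19 ± 0.26, SE, adjusted p = 0.763). Mmp12, Mmp19 and Mmp28 had log2 fold changes from −0.50 to 0.59, and none passed.

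**Figure D2:**
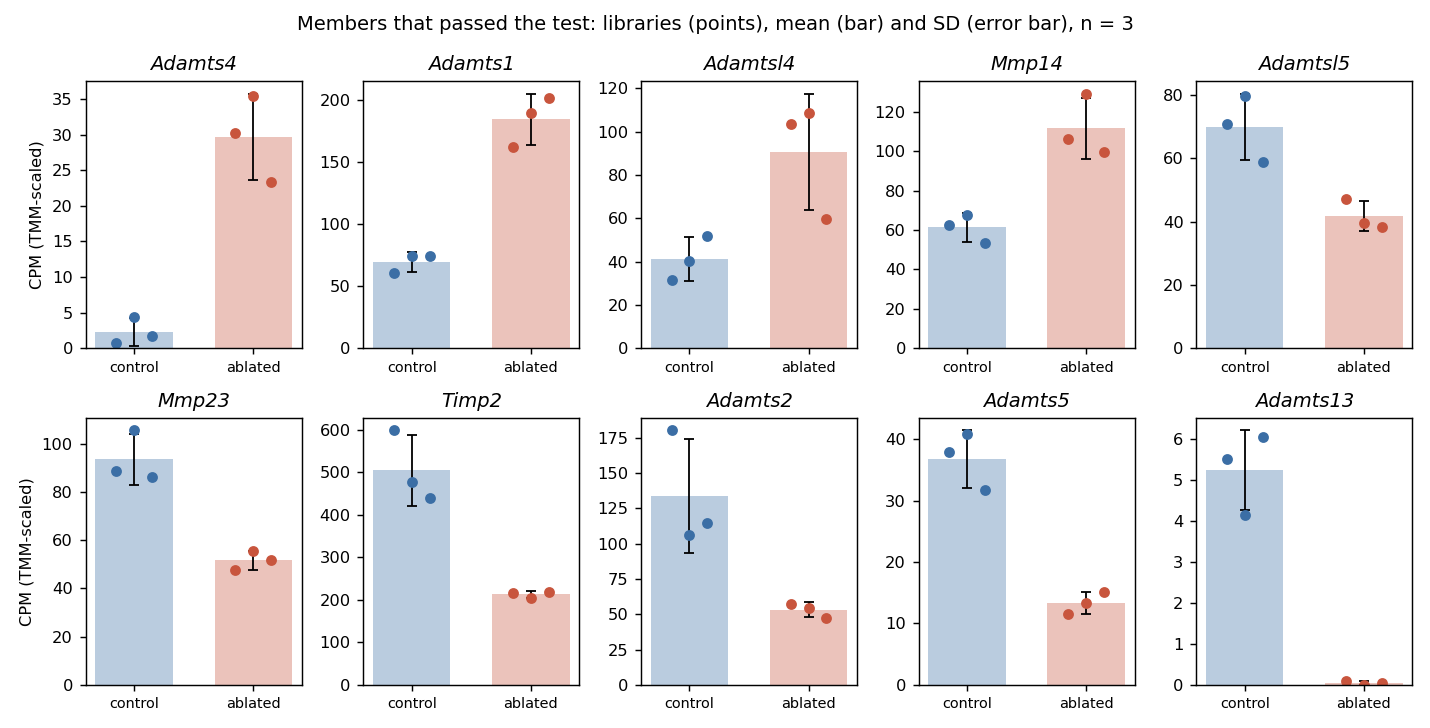
CPM (scaled by TMM) of the 10 members that passed the test, with each library as a point, the group mean as a bar and the SD as an error bar (n = 3). The libraries of the groups do not overlap in any of the 10 panels, and the ablated libraries of Adamts13 lie near 0.

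The ADAMTS proteoglycanases, which cut aggrecan, versican and related proteoglycans, moved in opposite directions. Of 7 members, all tested, 2 rose (Adamts1 and Adamts4) and 1 fell (Adamts5). Adamts1 (Entrez 11504) had 1319, 1415 and 1699 counts in control keratocytes and 3799, 4473 and 5016 in ablated keratocytes. Its lowest ablated library had more than any control. The rise was 2.65-fold (log2 fold change 1.40 ± 0.16 SE, adjusted p = 0.000144) and passed in all 15 alternative settings. Adamts1 thereby had the highest TPM of its family in the ablated libraries, 91.7 ± 10.8 (SD, n = 3).

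Adamts4, also known as aggrecanase-1, was low in the controls, with 15, 84 and 39 counts. The ablated libraries held 710, 835 and 580 counts. All 3 of them were far above the controls, and Adamts4 (Entrez 240913) rose 13.2-fold (log2 fold change 3.72 ± 0.55 SE, adjusted p = 0.00104). Without control 2, the highest control, its log2 fold change was 4.62.

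Adamts5, aggrecanase-2 and the protein-coding neighbour of Adamts1 on chromosome 16, went the other way. Counts of Adamts5 (Entrez 23794) were 826, 777 and 725 in control keratocytes and 271, 316 and 377 in ablated keratocytes. Every ablated library was below every control, a fall of 2.75-fold (log2 fold change −1.46 ± 0.24 SE, adjusted p = 0.00237). The adjusted p from limma was 0.0597 on log2(TPM + 1) values and 0.0661 on log2(TPM + 0.1) values. The ratio of Adamts1 to Adamts5, in TPM within a library, was 2.70, 2.99 and 3.85 in the controls, against 22.2, 22.6 and 21.3 in the ablated libraries. The neighbours therefore stood in separate ranges of this ratio, which is a description of levels already tested one by one.

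The other 4 proteoglycanases were low. Adamts15 had 59, 48 and 0 counts in control keratocytes and 195, 276 and 171 in ablated keratocytes, without overlap, and did not pass (log2 fold change 2.36 ± 0.99 SE, adjusted p = 0.195). Its chromosome 9 neighbour Adamts8 had 22 to 94 counts in the controls and 3 to 107 in the ablated libraries. Adamts9 had 41 to 111 and 104 to 241 counts and Adamts20 had 5 to 52 and 55 to 103, and neither passed. The summed level of the 7 genes was 39.3 to 47.3 TPM in the controls and 102 to 129 TPM in the ablated libraries.

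Adamts2 removes the amino-terminal propeptide from fibrillar procollagens, a step needed for regular fibril assembly. Adamts2 (Entrez 216725) had 3931, 2018 and 2622 counts in control keratocytes and 1348, 1288 and 1175 in ablated keratocytes. Control 1 was the highest, and all controls were above all ablated libraries. The fall was 2.52-fold (log2 fold change −1.33 ± 0.21 SE, adjusted p = 0.00190). The related N-propeptidase Adamts3 had 0, 77 and 1 counts in control keratocytes and 64, 146 and 82 in ablated keratocytes and did not pass (adjusted p = 0.600, or 0.0137 without control 2). The third enzyme of this kind, Adamts14, had at most 34 counts. The summed level of these enzymes was 31.5 to 50.4 TPM in the controls and 16.0 to 21.5 TPM in the ablated libraries.

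Adamts13, the plasma protease that cuts von Willebrand factor, was almost lost from the ablated libraries. Adamts13 (Entrez 279028) had 120, 79 and 138 counts in control keratocytes and 2, 0 and 1 in ablated keratocytes. Since all ablated libraries were at or under 3 counts, 3 counts per library were taken as the floor. The mean control CPM was 41.8-fold above that floor, a value that leaves out the spread among libraries. The edgeR adjusted p was 0.00183, and the interval of the log2 fold change ran from −9.17 to −4.42. The upper end of that interval is a smaller fall than 41.8-fold. The control level of Adamts13 was low, at 2.74 ± 0.741 TPM (SD, n = 3). The call passed in all 15 alternative settings.

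Adamts10 acts in microfibril assembly and was the most abundant of the 3 tested members of that group. It had 1009, 1034 and 1929 counts in control keratocytes and 1159, 1010 and 2236 in ablated keratocytes. Replicate 3 of each group was high and the groups overlapped (log2 fold change −0.02 ± 0.30 SE, adjusted p = 0.983). The interval of that change, −0.67 to 0.63, still allows a moderate shift either way. Adamts6 and Adamts17, the other tested members of that group, had 0 to 85 counts and did not pass. Adamts7 and Adamts12, which cut cartilage oligomeric matrix protein, had log2 fold changes of −0.31 and 0.80 and did not pass.

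**Figure D3:**
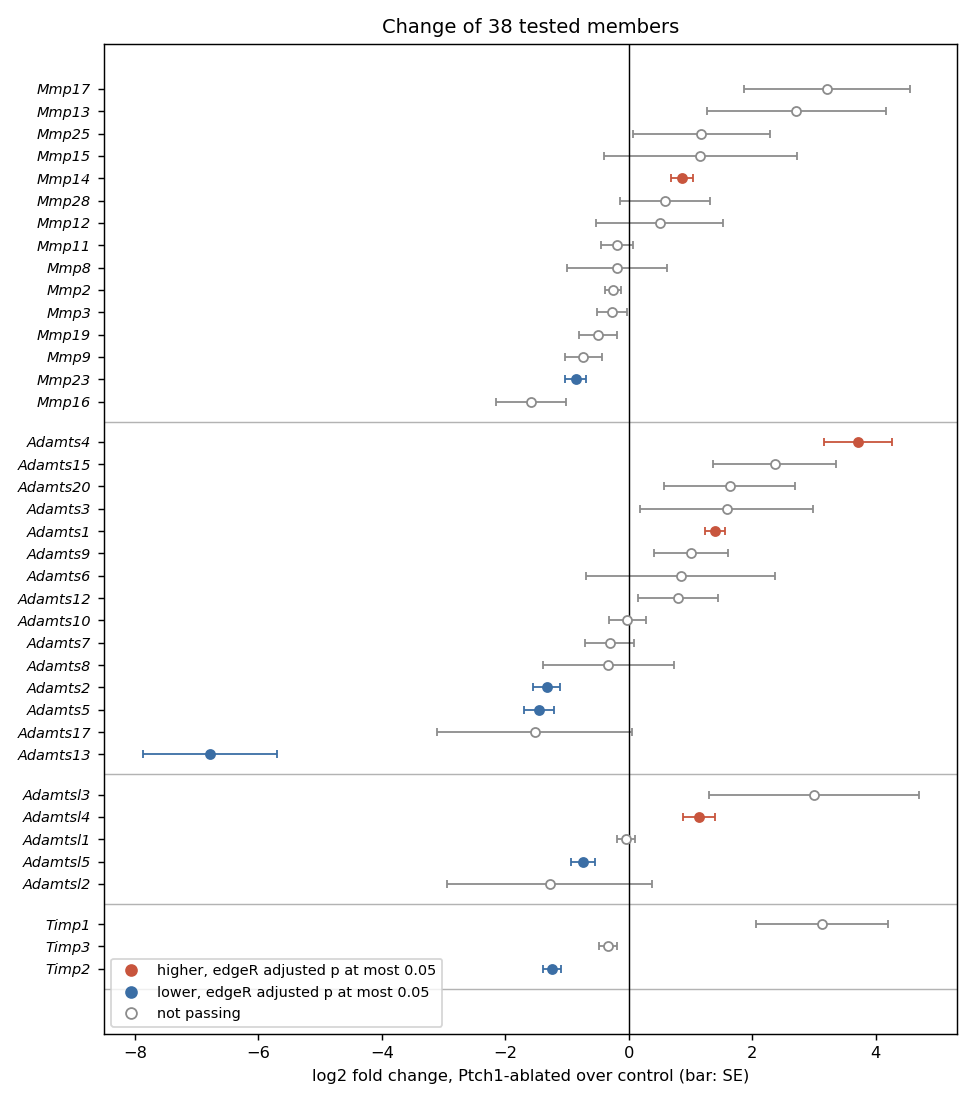
Log2 fold change, Ptch1-ablated over control, of the 38 tested members, ordered by size within MMP, ADAMTS, ADAMTSL and TIMP genes from top to bottom, with the SE as a bar. Filled red points rose (4), filled blue points fell (6) and open points did not pass. The point of Adamts13 is a fitted value of a gene at the floor.

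ADAMTSL proteins are matrix components without protease activity. Adamtsl1 was the most abundant in TPM, with 7416, 8496 and 10725 counts in control keratocytes and 9766, 10280 and 9150 in ablated keratocytes. The groups overlapped (log2 fold change −0.04 ± 0.15 SE, adjusted p = 0.926), and the 95% interval ran from −0.36 to 0.28. Adamtsl4, which binds fibrillin-1 and whose human gene is known for displaced lenses, had 686, 766 and 1186 counts in control keratocytes and 2426, 2562 and 1486 in ablated keratocytes. The groups did not overlap, but ablated 3 lay nearest to the controls. Adamtsl4 (Entrez 229595) rose (log2 fold change 1.14 ± 0.26 SE, adjusted p = 0.0164). The call was lost without control 2 (adjusted p = 0.0640), ablated 1 (0.0681) or ablated 2 (0.0772), with the replicate number as a block (0.0525), and with control 1 and ablated 2 both left out (0.123).

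Adamtsl5 (Entrez 66548) had 1549, 1519 and 1345 counts in control keratocytes and 1105, 933 and 951 in ablated keratocytes. The groups did not overlap, and Adamtsl5 fell 1.68-fold (log2 fold change −0.75 ± 0.19 SE, adjusted p = 0.0331). This call was lost in 10 of 15 alternative settings, among them every omission of a single library other than control 3 (adjusted p from 0.0505 to 0.150). Adamtsl2 and Adamtsl3 had 0 to 113 counts, with libraries at 0 or 1 in at least one group, and did not pass.

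Of the 3 TIMP genes tested, 1 fell and none rose past the threshold. Timp2, the most abundant inhibitor in the controls, inhibits MMPs broadly and also takes part in Mmp2 activation. Timp2 (Entrez 21858) had 13046, 9091 and 10016 counts in control keratocytes and 5077, 4810 and 5435 in ablated keratocytes. The ablated libraries lay close together and below every control, a fall of 2.37-fold (log2 fold change −1.24 ± 0.14 SE, adjusted p = 0.000145). The call passed in all 15 alternative settings. In TPM, Timp2 was 297 ± 44.3 in the controls and 145 ± 2.14 in the ablated libraries (SD, n = 3).

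Timp3, which binds to the matrix and also inhibits ADAM and ADAMTS proteases, had 7298, 5580 and 9350 counts in control keratocytes and 5953, 6532 and 7225 in ablated keratocytes. The groups were separated in CPM but overlapped in TPM (130 to 188 and 130 to 152), and Timp3 did not pass (log2 fold change −0.34 ± 0.15 SE, adjusted p = 0.222). Timp3 lies within Syn3, which had a log2 fold change of −0.84 (adjusted p = 0.0572). Timp1, an inducible soluble inhibitor encoded within Syn1, had 0, 18 and 24 counts in control keratocytes and 100, 149 and 176 in ablated keratocytes. The groups were well apart, yet the change did not pass (log2 fold change 3.14 ± 1.07 SE, adjusted p = 0.103). Timp1 passed without control 1 (0.0384), in DESeq2 (0.00973) and with limma fits of log2(TPM + 1) values (0.00155) and of log2(TPM + 0.1) values (0.0272). Syn1 had 0 to 15 counts.

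Timp2 made up 57.9 to 70.0% of the summed TIMP level in the controls and 45.2 to 50.1% in the ablated libraries. The share of Timp3 was 29.8 to 41.2% and 44.7 to 46.7%, and that of Timp1 was 0 to 0.717% and 5.07 to 8.11%. The sum of MMP genes over that of TIMP genes was 3.46 to 4.72 in the controls and 5.22 to 6.79 in the ablated libraries, without overlap. For the pair of Mmp14 and Timp2, whose proteins act together at the cell surface, the ratio was 0.0996, 0.135 and 0.116 in the controls, against 0.467, 0.602 and 0.434 in the ablated libraries. These ratios are mRNA levels within a library and carry no test of their own.

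**Figure D4:**
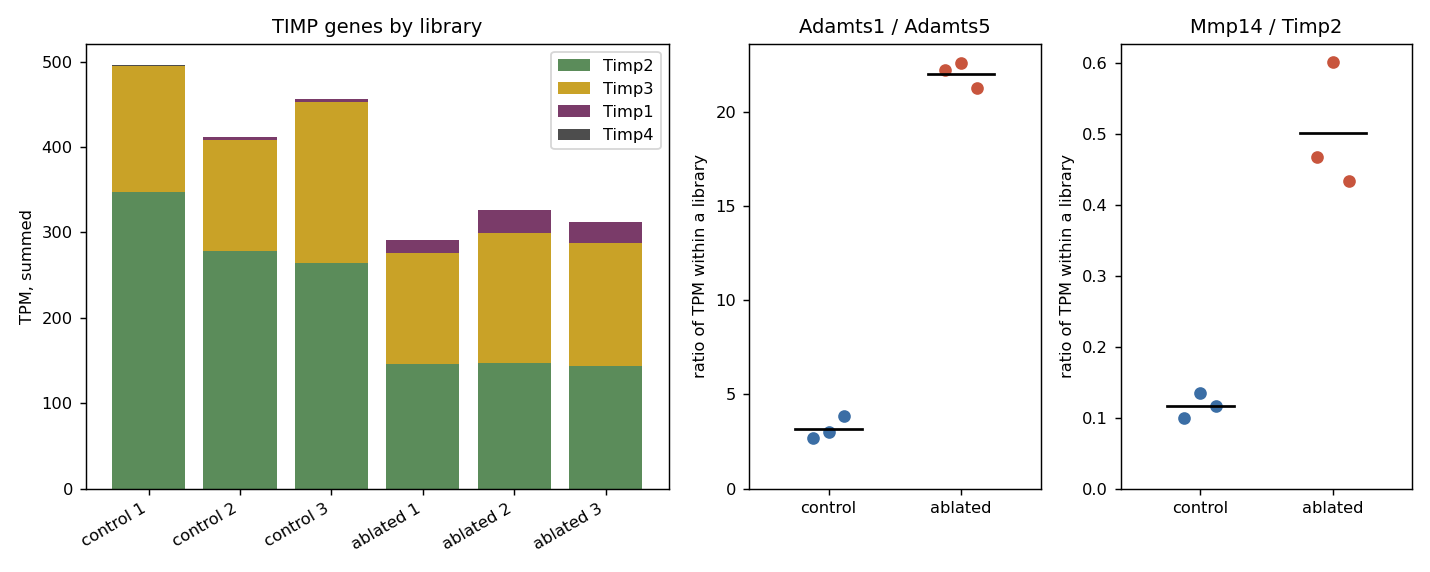
Left, summed TPM of the TIMP genes in each library, stacked by gene. Middle and right, the TPM ratios of Adamts1 to Adamts5 and of Mmp14 to Timp2 within each library (points) with the group mean (line). Both ratios are higher in every ablated library than in any control, and the Timp2 part of the bars is smaller.

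The count rule left 8 members without a fold change. Mmp24 had 5 to 32 counts in the controls and 4 to 9 in the ablated libraries, and Mmp21 had 0 to 16 and 0 to 3. Mmp27 and Mmp1b were seen in ablated 3 alone, with 20 and 5 counts, and Mmp1b could share reads with its close copy Mmp1a. Adamts14, Adamts16, Adamts18 and Adamts19 had 0 to 6 counts in the controls and 0 to 34 in the ablated libraries. These genes were outside the fit reported, and neither a change nor its absence is read from their counts. Timp4 met the rule with 17, 0 and 17 counts in control keratocytes and 10, 0 and 0 in ablated keratocytes but was left out by edgeR's filter. With the rule as the filter its log2 fold change was −1.81 (adjusted p = 0.657).

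Genes that act on these proteases or share their substrates were taken from fixed lists. Of 12 activators and inhibitors, 1 rose and 1 fell. Reck, a membrane-anchored inhibitor of several MMPs, rose by 1.33 ± 0.22 on the log2 scale (SE, adjusted p = 0.00220). A2m, the broad protease trap α2-macroglobulin, fell with −1.58 ± 0.13 (SE, adjusted p = 1.3e-05). Furin and Pcsk5, proprotein convertases that can activate Mmp14, had log2 fold changes of 0.24 and 0.75 and did not pass (adjusted p = 0.642 and 0.0596). The urokinase gene Plau and its receptor Plaur did not pass either.

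Of 11 ADAM and astacin proteases, 1 rose and 1 fell. Tll2, a tolloid-like enzyme of the Bmp1 family, had 1428, 1560 and 1948 counts in control keratocytes and 110, 66 and 159 in ablated keratocytes. Each ablated library was far below the controls, a fall of 16.7-fold (log2 fold change −4.06 ± 0.31 SE, adjusted p = 6e-06). Bmp1 did not pass (log2 fold change −0.44 ± 0.22, SE, adjusted p = 0.297). Adam17, the main sheddase of TNF, rose by 0.73 ± 0.19 (SE, adjusted p = 0.0362), a call lost on leaving out any single library other than control 2 (adjusted p from 0.0653 to 0.121).

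Of 10 substrate genes, 2 rose and 2 fell. Col3a1 (log2 fold change 3.10 ± 0.30, SE) and the microfibril gene Fbn2 (2.25 ± 0.34, SE) rose, whereas Col1a1 and Col1a2 (−1.06 ± 0.11 and −0.94 ± 0.11, SE) fell, with edgeR adjusted p of 3.5e-05, 0.00115, 6.9e-05 and 0.000125. The proteoglycanase substrates Vcan and Acan stood at 1.05 ± 0.41 and 2.70 ± 1.55 (SE) on the log2 scale, which did not pass. Comp, the substrate of Adamts7 and Adamts12, had 76, 11 and 6 counts in control keratocytes and 243, 134 and 131 in ablated keratocytes and did not pass (adjusted p = 0.150). Lum and Dcn, the abundant stromal proteoglycans, had log2 fold changes of −0.07 and −0.32 and did not pass. The lists were chosen with earlier results of these data known, so the share that passed is no test of them. In all, 8 of the 33 related genes passed, beside 8.48% of all genes tested. Under the alternative settings 7 to 10 of them passed, while the number over all genes ran from 806 to 1736 (1178 in the fit reported).

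**Figure D5:**
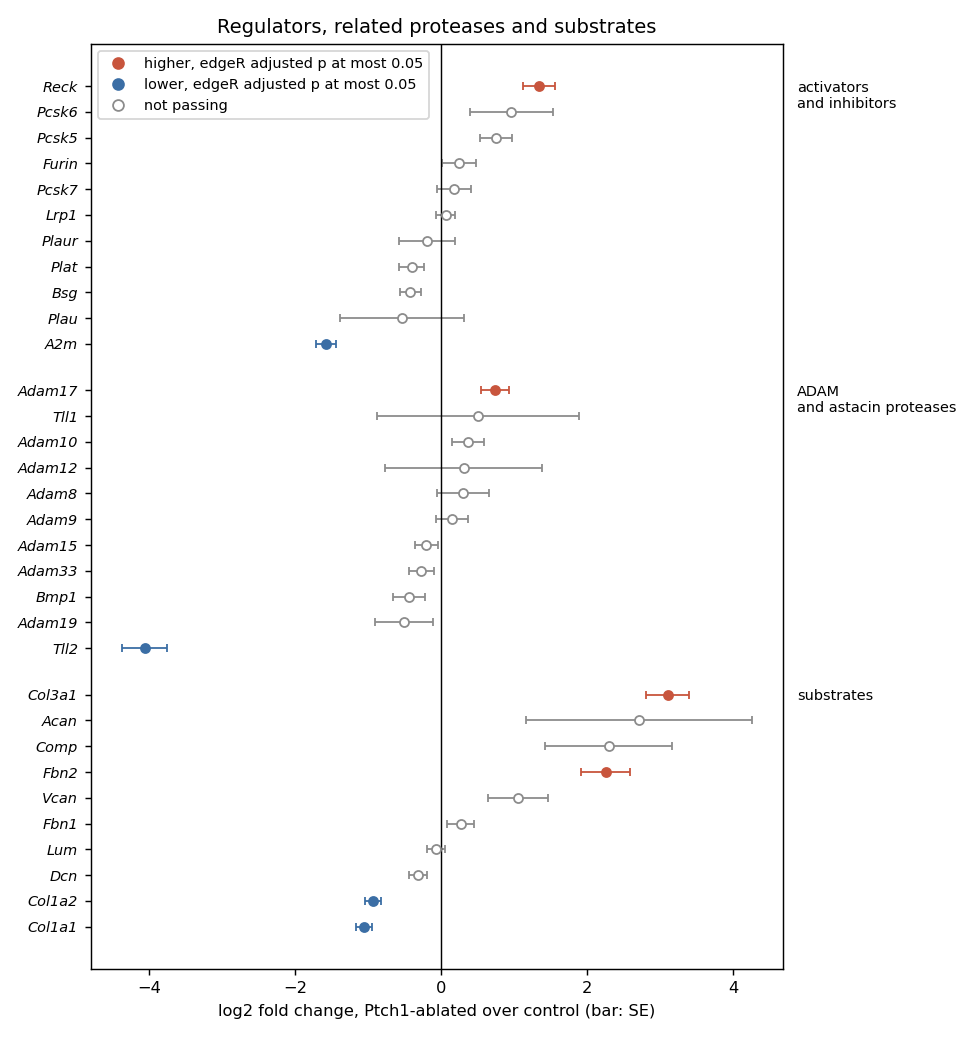
Log2 fold change, Ptch1-ablated over control, of related genes in 3 lists, with the SE as a bar. Filled red points rose (Reck, Adam17, Col3a1 and Fbn2), filled blue points fell (A2m, Tll2, Col1a1 and Col1a2) and open points did not pass.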

How the data were processed

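Bulk RNA-seq of sorted keratocytes was analysed in 3 control and 3 Ptch1-ablated libraries, grouped by sample title. The methods speak of biological replicates. Library preparation is described as TruSeq in the labels and as ribosomal RNA depletion for a BGISEQ instrument in the methods. Per the labels, the authors used Bowtie2 2.2.5, RSEM 1.2.12 and build mm9. The authors deposited RSEM expected counts per gene (18.6% not whole, because RSEM splits shared reads), TPM and FPKM values, both scaled by the authors for length and library. Group averages were not used.

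Expected counts were rounded, filtered with filterByExpr (13888 of 17606 genes, 99.93% of counts), scaled by TMM and compared with edgeR's quasi-likelihood test (two-sided, no covariates, Benjamini-Hochberg over all genes). An adjusted p no higher than 0.05 counted as passing, and the call of a single gene rests on that alone. Unless said otherwise, counts of called genes under the alternative settings also needed a fold of at least 2, after the study's methods. CPM are counts per 1000000 of the scaled total. Intervals are 95% and unadjusted. Exact permutation of 3 against 3 libraries reaches p = 0.1 at the lowest and was not used.

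Members and lists were chosen with earlier results of these data known. Values per library are given for members that passed, the 4 most abundant MMP and ADAMTS genes, the 2 most abundant ADAMTSL genes and the TIMPs, and for other members that did not overlap or that a setting called, chosen after their values were seen. Related genes were named if they passed, and others, chosen after their values were seen, for their role.

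Promoter windows and neighbours came from RefSeq tables of GRCm38.p6. Windows of members were matched by Entrez number, and neighbours and the windows of all tested genes by symbol. A result for an overlapping gene and one for a related gene are not reported here. Since the counts use mm9, no gene coordinates are given. Software was edgeR 4.0.16, DESeq2 1.42.0 and limma 3.58.1 under R 4.3.3, with figures by matplotlib 3.10.9 under Python 3.11.15.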

Additional observations from a re-analysis of the deposited data

How the results depend on the processing

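With a fold of at least 2 required, 3 members were higher and 4 lower. DESeq2, RLE scaling, library totals, no low-count filter and the count rule as the filter gave 3 or 4 higher, as did no fold minimum (4 higher, 6 lower). Limma gave 7 higher on log2(TPM + 1) and 6 on log2(TPM + 0.1), adding Mmp14, Mmp13 and Timp1, and Adamts15 in the former, with 3 lower in each. These fits also shift the median of all genes by 0.19 and 0.22, and library totals by 0.17. Leaving out single libraries gave 2 to 4 higher and 4 or 5 lower. Without control 1 and ablated 2, chosen after seeing the data, 2 were higher and 5 lower. Whether the replicate numbers pair the samples is not stated. Deviations of same-numbered libraries correlated at −0.022, −0.063 and 0.039, which are too few values to decide it. With the replicate block 2 were higher and 4 lower, and 663 of all genes were called in place of 763. Over the 38 members, 540 results under alternative settings kept their side of the threshold, 18 lost it, 11 gained it and 0 reversed while called. The causes were not tested. The ratio of summed TPM, ablated over control, was 0.681 for TIMP genes (0.650 to 0.713 on leaving out a library) and 1.44 for ADAMTS genes (1.39 to 1.52). For MMP genes it was 0.961 (0.912 to 1.01), and for ADAMTSL genes 1.19 (1.11 to 1.30). FPKM gave 0.659, 1.40, 0.935 and 1.15. Low members such as Mmp13, Mmp17, Adamts3 and Timp1 had at least 1 control at 0 counts. Whether depth or spread between libraries kept them from passing was not tested.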
